A study of Mus musculus with 8 samples.

Results

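The genes described here are 35 genes of glycolysis and of the response to low oxygen, read on 85 probe sets of a mouse expression array that measured 20680 gene symbols on 45037 probe sets. They were chosen by symbol: 21 encode glucose transporters, glycolytic enzymes and their regulators, and 14 encode subunits, regulators or targets of the hypoxia-inducible factors. The cells, a mouse mesenchymal line that the labels spell CH310T1/2, were grown in micromass, that is as dense spots in which cartilage can form. All 4 groups of 2 arrays were electroporated with plasmid DNA. Controls on day 0 and on day 1 received a control plasmid. The cultures labelled Erg received instead a plasmid encoding Erg-010, where Erg is a transcription factor with an ETS domain, driven by the CMV promoter on day 0 and by the Col2 promoter on day 1. Promoter and day therefore cannot be told apart in the cultures labelled Erg, and day cannot be told apart from the array number, which ran from 1 to 4 on day 0 and from 5 to 8 on day 1. Since the labels are silent on whether replicate arrays stem from separate cultures, p-values may measure technical spread alone.

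Glycolysis turns glucose into pyruvate, which is either oxidised in mitochondria or reduced to lactate. When oxygen is low, prolyl hydroxylases no longer mark the alpha subunits of the hypoxia-inducible factors for destruction, and the stabilised factors pair with Arnt and bind DNA at sites with the core letters ACGTG or GCGTG. Their known targets include most glycolytic enzymes, glucose transporters, the kinase that keeps pyruvate out of the citric acid cycle, and genes for pH control, mitophagy and collagen hydroxylation. Growth plate cartilage has no vessels, and its cells depend on glycolysis and on Hif1a in the mouse.

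Levels are log2 values of the deposited intensities, and a difference of 1 is a doubling. A gene was read by its brightest probe set that carries no other symbol. It passed the test at an adjusted p under 0.05, from limma with Benjamini-Hochberg adjustment over all probe sets. Array medians lay between 6.59 and 6.70, and having 2 arrays a group limits the precision. All 35 genes were measured. Egln3 lay below the first quartile of its array in all 8 arrays. Erg itself, on its probe set with the larger differences, read 7.30 and 7.61 in controls and 6.79 and 5.59 in the arrays labelled Erg on day 0. On day 1 it read 8.43 and 8.50 in controls and 8.53 and 7.68 in the arrays labelled Erg. Its mean was thus not higher in the arrays labelled Erg on either day, and whether the probes read the plasmid transcript is unknown. Markers of mesenchyme had summed levels from 16.35 to 17.22 and none of the 11 was below the first quartile in all arrays. Summed cartilage markers read 11.88 to 12.39 on day 0 and 13.31 to 13.44 on day 1.

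One array stood apart from the rest, Erg day 0 replicate 2. It was the lowest of the 4 day 0 arrays in 30 of the 35 genes, against 44.8% of all genes. In 9 of the 35 it lay at least 1 unit below the next lowest day 0 array, against 1.98% of all genes. On the second principal component, with 20.5% of the variance, it lay at -84.07 and the other day 0 arrays between 4.62 and 42.47. All 8 lists of cell type markers had their lowest summed level of day 0 there. Mesenchyme markers, those of the labelled cell line, summed to 16.35 against 16.78 to 17.03 in the other day 0 arrays, and 9 of the 11, or 81.8%, were lowest in it. Adipocyte markers had a summed level of 11.71 against 12.95 to 13.37 in the other day 0 arrays and 4 of the 8 at least 1 unit below the next lowest array, and smooth muscle markers 11.96 against 12.70 to 12.87. The part of these differences in the results below was not tested, and in bulk RNA fewer cells of a type and less RNA per cell cannot be told apart. Values without this array stand beside the medians and named gene differences that it moves by over 1.5 times.

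**Figure D1:**
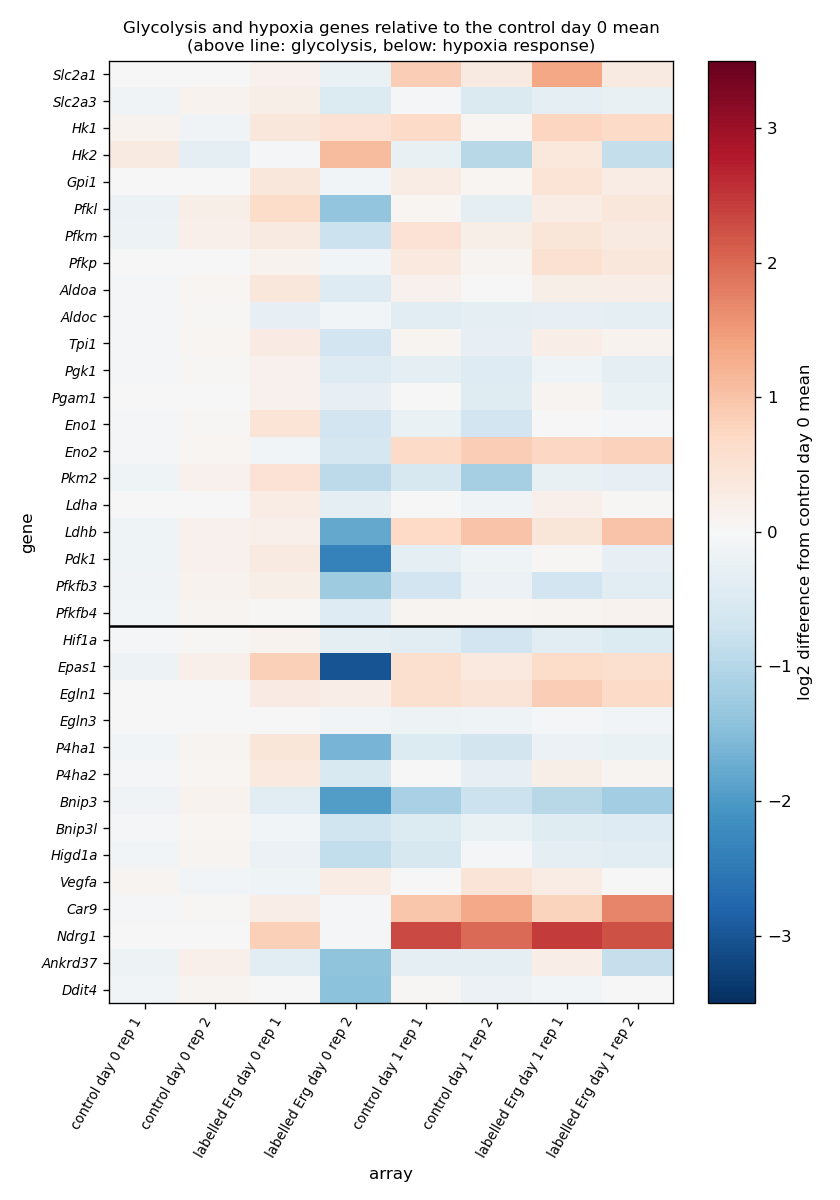
Log2 difference of each array (columns) from the mean of the 2 day 0 controls, for each of the 35 genes (rows, glycolysis above the line and hypoxia response below). Ndrg1 is highest in the 4 day 1 arrays, and Erg day 0 replicate 2 is the lowest day 0 array in 30 genes.

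During the first day of micromass culture with the control plasmid, 4 of the 35 genes passed as higher and none as lower on their brightest probe sets. Other probe sets of Slc2a3, Hif1a, Aldoc and Pfkfb3 passed as lower, as given below. Ndrg1 rose 4.43-fold, Car9 2.22-fold, Eno2 1.69-fold and Egln1 1.43-fold. They are 1 of the 21 glycolysis genes, or 4.76%, and 3 of the 14 hypoxia genes, or 21.4%. Among all genes 20.3% passed, 11.0% higher and 9.26% lower, so the glycolysis share lies below the background. The hypoxia share is near that of both directions together and above that of genes called higher, with 3 genes behind it. The median difference was -0.10 for the glycolysis genes and -0.15 for the hypoxia genes, against -0.15 for all genes. Both day 1 controls lay above both day 0 controls in 10 of the 35 genes and below both in 12. That is 28.6% and 34.3%, against 27.3% and 47.4% of all genes.

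Markers of other cell types moved between the same control arrays, where 11.0% of all genes rose and 9.26% fell. Of 7 smooth muscle markers 2 rose, Myl9 by 3.79 and Tagln by 2.17, and the summed level was 12.70 and 12.83 on day 0 and 14.61 and 14.16 on day 1. Of 13 cartilage markers 2, or 15.4%, rose: Sox9, the chondrocyte transcription factor, by 1.44 and Lect1, chondromodulin, by 1.45. The list did not move as one, since 8 of the 13 differed by more than 0 and 5 by less, down to -0.52. Of 10 leukocyte markers 2 fell, with summed levels of 10.50 and 11.24 and then 10.02 and 9.97, and 2 of the 10 lay below the first quartile throughout. Of 8 adipocyte markers Pparg rose by 1.86, and Cfd and Cd36 fell by 2.86 and 1.20. Among 11 mesenchyme markers Pdgfrb rose by 0.81. Of the endothelial, epithelial and skeletal muscle markers 1 each fell, Tie1, Krt18 and Mylpf. Their part in the changes of the 35 genes was not tested.

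Ndrg1, a stress-responsive gene induced by hypoxia and by differentiation, changed most. Within each pair replicate 1 comes first, here and below. It read 10.74 and 10.72 in controls on day 0, 11.57 and 10.67 in the day 0 arrays labelled Erg, 13.05 and 12.71 in controls on day 1, and 13.17 and 12.95 in the day 1 arrays labelled Erg. All 4 day 1 arrays lay above all 4 day 0 arrays. The control difference was 2.15 (SE 0.29, adjusted p = 0.00675), and all 5 of its probe sets passed, with differences from 0.99 to 2.32. The probe set that stands for it is of a kind that can read related transcripts; one without that limit gave 2.32 (adjusted p = 0.00501). Without either day 0 control the call was lost, at adjusted p = 0.058 and 0.069, with differences of 2.16 and 2.13.

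Car9, a carbonic anhydrase on the cell surface that helps control pH in low oxygen, was the second largest. It read 5.78 and 5.88 in controls on day 0, 6.06 and 5.75 in the day 0 arrays labelled Erg, 6.80 and 7.16 in controls on day 1, and 6.61 and 7.54 in the day 1 arrays labelled Erg. The days did not overlap under either plasmid, while the day 1 arrays were more spread than the day 0 arrays. The control difference was 1.15 (SE 0.30, adjusted p = 0.0413). It did not pass without any one of the 4 controls, at adjusted p from 0.0905 to 0.184.

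Egln1, the main oxygen-sensing prolyl hydroxylase and itself a target of the factors it degrades, read 9.67 and 9.67 in controls on day 0. It read 9.95 and 9.92 in the day 0 arrays labelled Erg, 10.24 and 10.13 in controls on day 1, and 10.54 and 10.34 in the day 1 arrays labelled Erg. The 4 groups lay in that order from low to high without overlap. The control difference was 0.52 (SE 0.12, adjusted p = 0.0324), but the other probe set of Egln1 differed by 0.05 (SE 0.21). It did not pass without any one of the 4 controls or of the day 1 arrays labelled Erg, at adjusted p from 0.0638 to 0.160. The call also ended after a second quantile normalization, at 0.37 (adjusted p = 0.110), and after cyclic loess, at 0.42 (adjusted p = 0.0683).

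Promoter windows are shown for Car9 and Egln1 because both rose and hold the core letters ACGTG, here in capitals. They run from 250 bases before to 50 after the start of the gene, 5′ to 3′ on its strand, from RefSeq on GRCm38.p6. Car9 lies on the plus strand at chr4:43506776-43507075 and holds the letters on the reverse strand, so they read CACGT, starting 18 bases before the start. Egln1 lies on the minus strand at chr8:124949205-124949504 and holds them 68 bases before the start.
Car9: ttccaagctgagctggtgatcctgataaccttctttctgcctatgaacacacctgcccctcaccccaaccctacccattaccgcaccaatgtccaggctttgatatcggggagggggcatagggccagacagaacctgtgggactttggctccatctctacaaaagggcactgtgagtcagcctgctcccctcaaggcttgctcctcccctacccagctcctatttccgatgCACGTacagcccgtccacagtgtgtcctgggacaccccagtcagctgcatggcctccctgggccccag
Egln1: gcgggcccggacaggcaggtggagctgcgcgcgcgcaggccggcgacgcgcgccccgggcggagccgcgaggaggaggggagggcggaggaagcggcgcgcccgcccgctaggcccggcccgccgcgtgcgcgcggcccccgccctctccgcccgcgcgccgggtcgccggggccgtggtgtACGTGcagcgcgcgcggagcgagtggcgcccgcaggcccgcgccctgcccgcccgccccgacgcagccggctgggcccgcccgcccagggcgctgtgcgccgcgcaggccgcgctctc

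ACGTG was searched on both strands in the 31 genes that have a window. It occurred in 11 of 11 hypoxia genes and in 11 of 20 glycolysis genes, or 55.0%, against 21.8% of all genes with a window. A gene counted if any of its windows held the letters, and some genes have several. Counted by window, ACGTG occurred in 91.7% of 12 hypoxia windows and 42.4% of 33 glycolysis windows, against 19.6% of all windows. The windows were not matched for their content of G and C. GCGTG occurred in 72.7% of the hypoxia genes and 65.0% of the glycolysis genes, against 35.2% of all. CACGTG, which holds ACGTG on each strand, occurred in 18.2%, 15.0% and 8.09%. Many of these genes are known as targets through such sites, so the list was not drawn without regard to them, and a match is no evidence of binding. Ndrg1, Slc2a3, Epas1 and Bnip3l are named only. Eno2, which rose, holds no ACGTG in its window, while 9 hypoxia genes and 11 glycolysis genes that did not pass between the control days do.

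**Figure D2:**
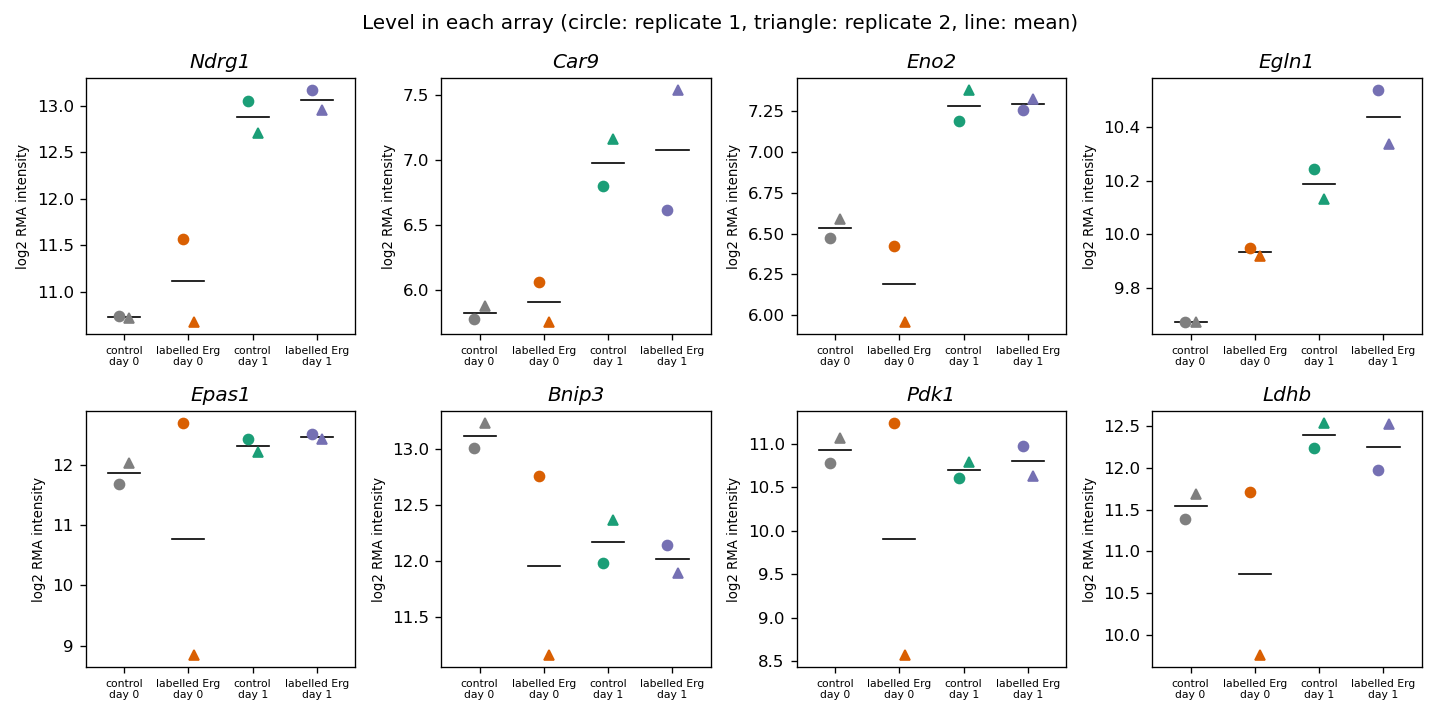
Log2 intensity of 8 genes in each array (circle, replicate 1; triangle, replicate 2; line, mean of the 2). Ndrg1, Car9, Eno2 and Egln1 passed between the control days; Epas1, Bnip3, Pdk1 and Ldhb show Erg day 0 replicate 2 lowest of all 8 arrays.

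Among the glycolysis genes, Eno2 alone passed between the control days. It encodes the gamma enolase, best known from neurons, which makes phosphoenolpyruvate. It read 6.47 and 6.59 in controls on day 0, 6.42 and 5.95 in the day 0 arrays labelled Erg, 7.19 and 7.38 in controls on day 1, and 7.26 and 7.32 in the day 1 arrays labelled Erg. The day 1 arrays all lay above the day 0 arrays. The control difference was 0.75 (SE 0.18, adjusted p = 0.0309). It did not pass without any one of the 4 controls or of the day 1 arrays labelled Erg, at adjusted p from 0.0677 to 0.141.

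The other enolase gene, Eno1, the form found in most cells, differed by -0.45 (SE 0.35, adjusted p = 0.381) between the control days. Of the 6 genes from the triose isomerase to pyruvate kinase, by which the three-carbon sugars become pyruvate, Eno2 was the sole one above 0. Pkm2, pyruvate kinase of the muscle type, differed by -0.86, Pgk1, which makes ATP, by -0.38, Pgam1, a mutase, by -0.22 and Tpi1, the triose isomerase, by -0.10. In 4 of the 6 both day 1 controls lay below both day 0 controls, as in 47.4% of all genes. Pkm2 read 11.11 and 11.41 in controls on day 0 and 10.71 and 10.09 on day 1 (adjusted p = 0.199).

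The stage that spends ATP on glucose gave differences on both sides of 0 and none passed. The hexokinases, which trap glucose in the cell, differed by 0.36 for Hk1 and -0.62 for Hk2, the isoform that the hypoxia factors are known to induce. Gpi1, the isomerase, differed by 0.15. The phosphofructokinase subunits, which form the committed step, differed by -0.13 for Pfkl, 0.36 for Pfkm and 0.23 for Pfkp. The aldolases differed by 0.09 for Aldoa and -0.35 for Aldoc. Aldoc had a second probe set that passed, at -0.54 (SE 0.13, adjusted p = 0.0343).

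The glucose transporters also parted in sign. Slc2a1, the basal transporter, read 10.35 and 10.38 in controls on day 0 and 11.23 and 10.69 on day 1, a difference of 0.59 (SE 0.35, adjusted p = 0.260). Slc2a3, a high affinity transporter, differed by -0.27 on its brightest probe set, while 2 dimmer probe sets passed at -0.72 and -0.64. Of the enzymes at pyruvate, Ldha, the lactate dehydrogenase subunit known as a hypoxia target, differed by -0.05. Ldhb, the other subunit, differed by 0.85 (SE 0.57, adjusted p = 0.313). Pdk1, which shuts the pyruvate dehydrogenase, differed by -0.23. Pfkfb3 and Pfkfb4, which set the level of the activator of phosphofructokinase, differed by -0.43 and 0.09, and a second Pfkfb3 probe set passed at -1.07 (SE 0.19, adjusted p = 0.0130).

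The alpha subunits themselves did not pass on their brightest probe sets. Hif1a read 12.36 and 12.45 in controls on day 0 and 12.03 and 11.74 on day 1, a difference of -0.52 (SE 0.19, adjusted p = 0.0961). Both day 1 controls were lower than both day 0 controls, and 2 further Hif1a probe sets passed, at -0.83 (adjusted p = 0.0130) and -0.64 (adjusted p = 0.0389). The remaining Hif1a probe set differed by 0.22 (adjusted p = 0.220). Epas1, the second alpha subunit, differed by 0.46 (SE 1.06, adjusted p = 0.772).

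Of the other hypoxia genes, the 3 with mitochondrial roles all lay below 0. Bnip3, a receptor that marks mitochondria for mitophagy, differed by -0.95 (SE 0.47, adjusted p = 0.186), its relative Bnip3l by -0.36 and Higd1a, a respiratory chain factor, by -0.30. The collagen prolyl hydroxylases P4ha1 and P4ha2 differed by -0.56 and -0.13, and Egln3, a second oxygen sensor, by -0.16. Vegfa, the vessel growth factor, differed by 0.23 on its brighter probe set and -0.16 on the other. Ankrd37, an ankyrin repeat gene, differed by -0.33, and Ddit4, an inhibitor of mTORC1, by -0.08. Bnip3 and Car9, both classical targets, therefore lay on opposite sides of 0.

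The number of calls moved with the arrays that set the error. Without Erg day 0 replicate 2, which takes no part in this contrast but enters its error, more genes passed, as did more of all probe sets. The share that passed among the glycolysis and hypoxia genes together lay below that among all probe sets, in each direction. The 5 higher genes were Ndrg1, Car9, Eno2, Egln1 and Ldhb. The 6 lower genes were Bnip3, Hif1a, P4ha1, Pkm2, Pgk1 and Aldoc. Bnip3 then had adjusted p = 0.00753 and Ldhb 0.0221, with the differences as given above. With the 4 control arrays alone 8 genes passed, the 4 risers and Ldhb higher, and Pkm2, Bnip3 and P4ha1 lower. Among all probe sets 27.8% passed, 15.6% higher and 12.3% lower.

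The promoter window of Bnip3 is shown beside those of the risers since it holds the same core letters on both strands and its level lay lower on day 1. It was chosen after its values were seen. It lies on the minus strand of GRCm38.p6 at chr7:138909457-138909756, and the letters CACGTG, in capitals, begin 108 bases before the start.
Bnip3: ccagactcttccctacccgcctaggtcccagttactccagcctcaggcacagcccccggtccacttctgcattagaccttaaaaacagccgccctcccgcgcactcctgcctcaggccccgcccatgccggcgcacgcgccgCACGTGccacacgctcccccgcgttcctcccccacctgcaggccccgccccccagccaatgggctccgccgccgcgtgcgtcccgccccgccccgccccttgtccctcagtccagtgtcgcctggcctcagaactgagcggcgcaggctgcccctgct

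**Figure D3:**
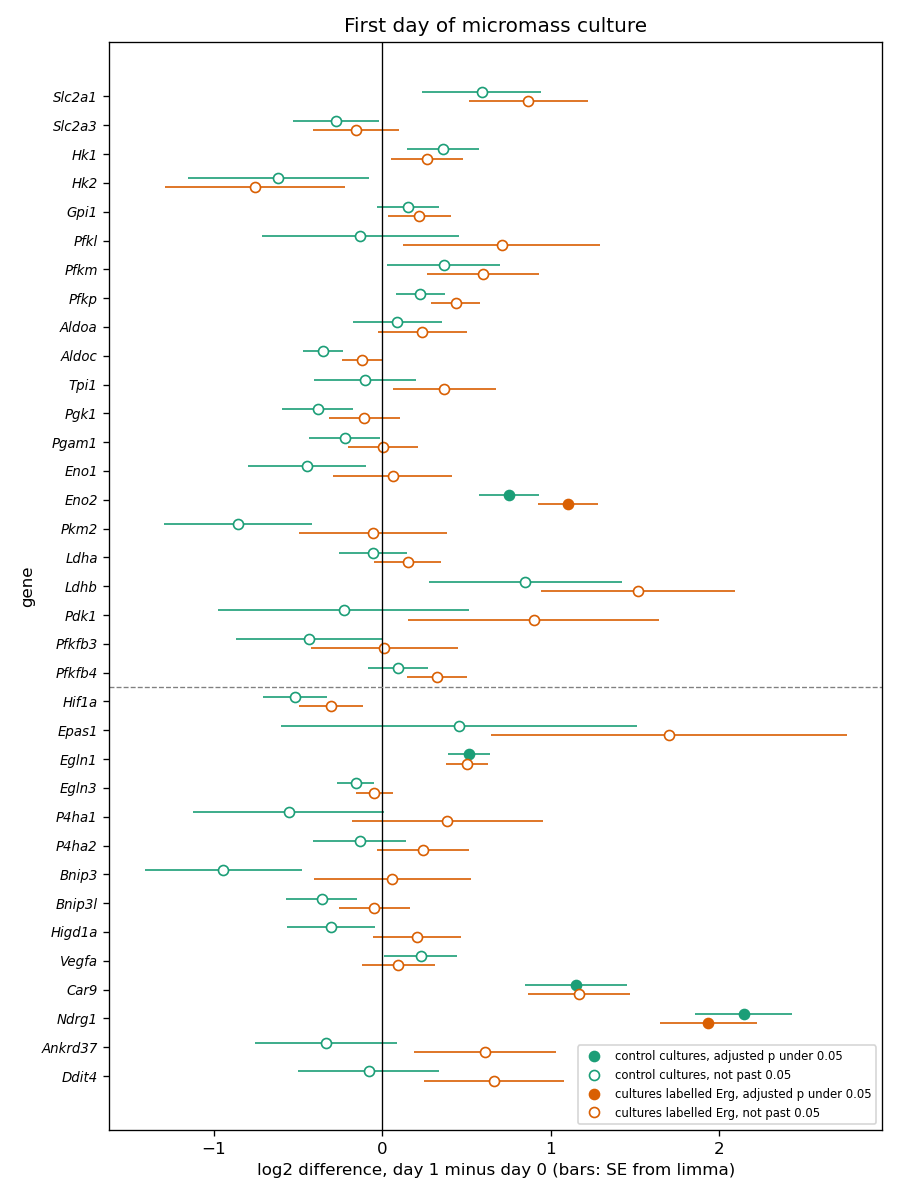
Log2 difference, day 1 minus day 0 (horizontal axis, bars 1 SE from limma), for each gene in control cultures (green) and cultures labelled Erg (orange); filled points passed at adjusted p under 0.05. Ndrg1, Car9, Eno2 and Egln1 are filled in controls, Ndrg1 and Eno2 in cultures labelled Erg.

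In the cultures labelled Erg, Ndrg1 and Eno2 passed as higher from day 0 to day 1. No gene of the 35 passed as lower on its brightest probe set, while 1 other Hif1a probe set did. Ndrg1 differed by 1.94 (SE 0.29, adjusted p = 0.0165) and Eno2 by 1.10 (SE 0.18, adjusted p = 0.0205). They are 5.71% of the 35, against 8.06% of all genes, 6.18% higher and 1.88% lower. Both day 1 arrays lay above both day 0 arrays in 10 genes, or 28.6%, and below both in 2, or 5.71%, against 24.4% and 32.2% of all genes. Car9 differed by 1.17 (adjusted p = 0.0711) and Egln1 by 0.50 (adjusted p = 0.0618). The calls of Ndrg1 and Eno2 did not hold with the 4 arrays labelled Erg alone, at adjusted p = 0.108 for Ndrg1 and 0.115 for Eno2 where 0.0511% of probe sets passed, nor without either day 0 control or either day 1 array labelled Erg, at adjusted p from 0.0553 to 0.170.

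The medians of this comparison turned with a single array. The median difference was 0.24 for the glycolysis genes and 0.31 for the hypoxia genes, against -0.07 for all genes. Without Erg day 0 replicate 2 they were -0.15 and -0.11, and Ndrg1 at 1.49 and Eno2 at 0.87 passed, where 6.91% of probe sets passed as higher. P4ha1 then passed as lower, at -0.63 (adjusted p = 0.0495), beside 2.74% of probe sets. Without Erg day 0 replicate 1, 17 genes passed, all higher, or 9 of 21 and 8 of 14, against 11.9% of probe sets. Epas1 showed this most: it read 12.69 and 8.84 in the day 0 arrays labelled Erg and 12.51 and 12.42 in those of day 1, a difference of 1.70 that became -0.22 without replicate 2.

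On day 0, with the CMV promoter, 0 of the 35 genes passed between the arrays labelled Erg and the controls, as did 0.0% of all genes. At an unadjusted p under 0.05 there was 1, Bnip3, against 6.23% of all genes. Of the 35 genes, 27 differed by less than 0, and the medians were -0.15 for glycolysis and -0.25 for hypoxia, against -0.03 for all genes. Without Erg day 0 replicate 2 the medians were 0.21 and 0.08. Without replicate 1, 9 genes passed as lower, 4 of glycolysis and 5 of hypoxia, against 3.41% of probe sets. The 2 arrays labelled Erg thus lay on opposite sides of the controls: in 22 of 35 genes replicate 1 was above both controls and replicate 2 below both, or 62.9%, against 18.6% of all genes. The same held for 8 of the 11 mesenchyme markers, or 72.7%, and for 4 of the 13 cartilage markers, or 30.8%.

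Bnip3 read 13.01 and 13.23 in controls on day 0, 12.76 and 11.16 in the day 0 arrays labelled Erg, 11.99 and 12.36 in controls on day 1 and 12.14 and 11.89 in the day 1 arrays labelled Erg. Both arrays labelled Erg were below both controls on day 0, replicate 2 by much more. The difference was -1.16 (SE 0.47, unadjusted p = 0.0429, adjusted p = 0.802). Its gap without replicate 2 was -0.36. The mitochondrial genes Bnip3, Bnip3l and Higd1a were all lower without overlap on day 0, and among the 35 genes this held for 6, or 17.1%, against 18.3% of all genes. Higd1a read 11.08 and 11.26 in controls and 10.96 and 10.30 in the arrays labelled Erg, a difference of -0.54 that was -0.21 without replicate 2. On day 1 it read 10.60 and 11.13 in controls and 10.86 and 10.80 in the arrays labelled Erg, so the groups overlapped.

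Ankrd37 read 8.95 and 9.29 in controls and 8.74 and 7.71 in the arrays labelled Erg on day 0, a difference of -0.90 (SE 0.42, adjusted p = 0.802) that was -0.38 without replicate 2. On day 1 it read 8.80 and 8.78 in controls and 9.35 and 8.32 in the arrays labelled Erg. The arrays labelled Erg enclosed the controls there. Ldhb read 11.39 and 11.69 in controls on day 0 and 11.71 and 9.75 in the arrays labelled Erg, a difference of -0.81 (SE 0.57, adjusted p = 0.811). Its sign turned to 0.17 without replicate 2. Pdk1, chosen after its values were seen, read 10.78 and 11.07 in controls and 11.24 and 8.56 in the arrays labelled Erg, a difference of -1.02 that turned to 0.32 without replicate 2.

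Hk1 and Egln1 went the other way on day 0. Hk1 read 10.32 and 10.06 in controls and 10.58 and 10.69 in the arrays labelled Erg, a difference of 0.44 (SE 0.21, adjusted p = 0.802). Egln1 differed by 0.26 (SE 0.12, adjusted p = 0.802), with the levels given above. These were the 2 of 35 genes, or 5.71%, whose arrays labelled Erg both lay above both controls, against 13.1% of all genes. Aldoc read 5.98 and 6.05 in controls and 5.74 and 5.91 in the arrays labelled Erg, a difference of -0.19 (SE 0.12, adjusted p = 0.802). On day 1 it read 5.65 and 5.67 in controls and 5.72 and 5.69 in the arrays labelled Erg, a difference of 0.04. Eno2 differed by -0.34 (SE 0.18, adjusted p = 0.802), and by -0.11 without replicate 2.

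On day 1, with the Col2 promoter, 0 of the 35 genes and 0.0% of all genes passed between the arrays labelled Erg and the controls. At an unadjusted p under 0.05 there were 0 of the 35 against 0.798% of all genes. Of the 35 genes, 28 differed by more than 0, and in 14, 10 of them of glycolysis, both arrays labelled Erg lay above both controls. That is 40.0%, against 21.2% of all genes, and 0 lay below both, against 9.56%. Of the 11 mesenchyme markers 7, or 63.6%, were above both controls, and of the 13 cartilage markers 1, or 7.69%. The medians were 0.16 for glycolysis and 0.08 for hypoxia, against 0.04 for all genes. Leaving out 1 array gave medians from 0.06 to 0.28 for glycolysis and from 0.06 to 0.12 for hypoxia.

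On their brightest probe sets the 8 genes from the hexokinases to the aldolases were all above 0 on day 1, from 0.007 to 0.47. The 6 from the triose isomerase to pyruvate kinase were too, from 0.008 to 0.59. Hk1, Pfkl, Pfkp, Aldoa and Pgk1 each had 1 other probe set below 0. The other probe sets of Gpi1, Aldoc, Tpi1 and Eno1 all lay above 0. Pkm2 read 11.75 and 10.34 in the day 0 arrays labelled Erg. On day 1 it read 10.71 and 10.09 in controls and 11.01 and 10.98 in the arrays labelled Erg, a difference of 0.59 (SE 0.44, adjusted p = 1). Eno1 read 12.61 and 12.17 in controls and 12.86 and 12.77 in the arrays labelled Erg, a difference of 0.42 (SE 0.35). In both genes control replicate 2 was the lowest of the 4 arrays. Hk1 read 10.85 and 10.25 in controls and 10.94 and 10.85 in the arrays labelled Erg, a difference of 0.35 (SE 0.21). Pfkp, the platelet type phosphofructokinase, read 9.99 and 9.75 in controls and 10.17 and 10.03 in the arrays labelled Erg, a difference of 0.23 (SE 0.15). The adjusted p was 1 for each of these genes. In Hk1 and Pfkp control replicate 2 was again the lowest. Without it the differences were 0.29 for Pkm2, 0.20 for Eno1, 0.04 for Hk1 and 0.11 for Pfkp, and without control replicate 1 they were 0.90, 0.64, 0.65 and 0.35.

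All 4 prolyl hydroxylase genes, 2 for oxygen sensing and 2 for collagen, were higher without overlap on day 1 on their brightest probe sets, as were 21.2% of all genes. The second probe sets of Egln1 and Egln3 overlapped between the groups. Egln1 differed by 0.25 (SE 0.12), with the levels given above, and by 0.15 without replicate 1 labelled Erg. P4ha2 read 11.10 and 10.80 in controls on day 1 and 11.28 and 11.17 in the arrays labelled Erg, a difference of 0.27 (SE 0.28) that was 0.12 without control replicate 2 and 0.42 without control replicate 1. Egln3 read 5.05 and 5.06 in controls and 5.13 and 5.11 in the arrays labelled Erg, a gap of 0.07 in a dim gene. Ndrg1 differed by 0.18 (SE 0.29) and its groups overlapped. Its difference was 0.01 without control replicate 2, 0.07 without replicate 1 labelled Erg, 0.29 without replicate 2 labelled Erg and 0.35 without control replicate 1. Each of these has an adjusted p of 1.

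**Figure D4:**
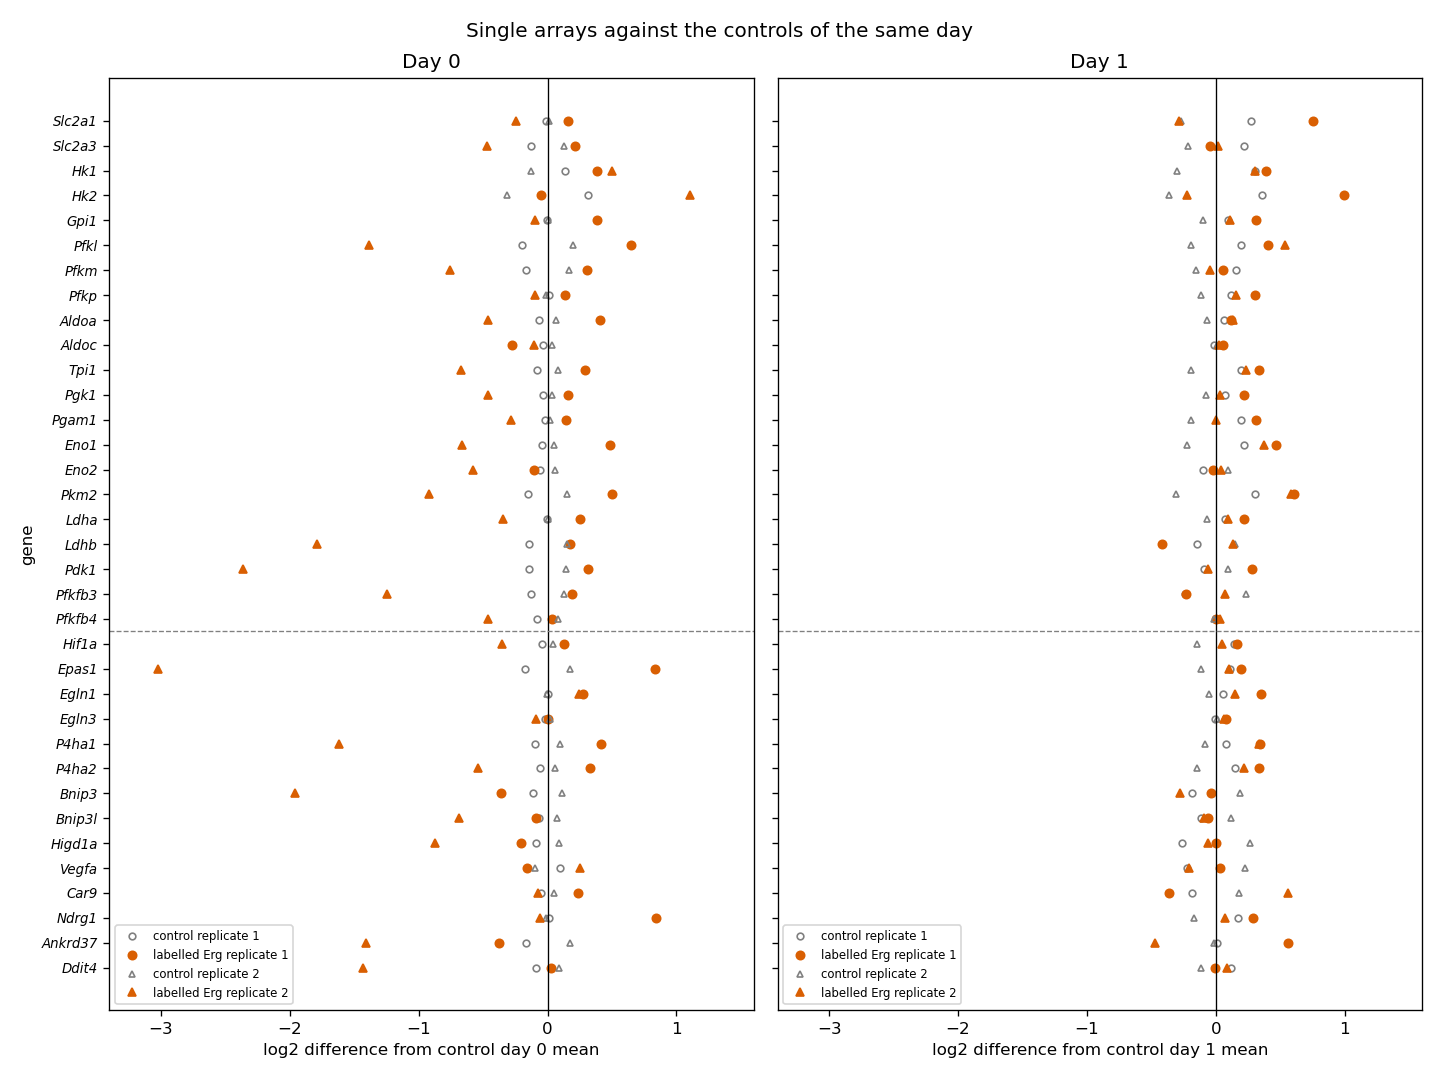
Each array minus the mean of the 2 controls of its day (horizontal axis, log2), for each gene, on day 0 (left) and day 1 (right); open symbols are controls and filled symbols arrays labelled Erg. On day 0 replicate 1 labelled Erg lies above both controls and replicate 2 below both in 22 genes, and on day 1 both lie above the controls in 14.

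The difference labelled Erg on day 1 was also set against that on day 0, and 0 of the 35 genes passed, as did 0.0% of all genes. At an unadjusted p under 0.05 there were 0 of the 35 against 2.05% of all genes. It was above 0 in 30 genes, with medians of 0.23 for glycolysis and 0.35 for hypoxia, against 0.05 for all genes. Without Erg day 0 replicate 2 these medians were -0.04 and -0.004. Bnip3 differed by 1.00 (SE 0.66), Ankrd37 by 0.94 (SE 0.60), Pkm2 by 0.80 (SE 0.62), Ddit4 by 0.75 (SE 0.59), Higd1a by 0.51 (SE 0.37), Tpi1 by 0.47 (SE 0.43), Eno2 by 0.35 (SE 0.25) and Aldoc by 0.23 (SE 0.17). The adjusted p was 0.974 for each of them. Leaving out that same array, the values were 0.21 for Bnip3, 0.42 for Ankrd37, 0.10 for Pkm2, 0.02 for Ddit4, 0.18 for Higd1a, -0.0068 for Tpi1 and 0.12 for Eno2, and Aldoc stood at 0.31. Ddit4 read 11.74 and 11.93 in controls on day 0, 11.86 and 10.41 in the day 0 arrays labelled Erg, 11.87 and 11.64 in controls on day 1, and 11.75 and 11.84 in the day 1 arrays labelled Erg. Every array but replicate 2 labelled Erg of day 0 lay between 11.64 and 11.93. Tpi1 read 12.35 and 12.51, 12.72 and 11.76, 12.52 and 12.13, and 12.66 and 12.56 in the same groups, with the same array lowest.

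Other genes of the same pathways were read between the control days, from lists that hold none of the 35. Of 19 other isozymes and regulators of glycolysis, 8 fell, or 42.1%, and 1 rose, or 5.26%, against 9.26% lower and 11.0% higher among all genes. Pfkfb2, a further kinase of the Pfkfb family, rose by 1.52 (SE 0.21, adjusted p = 0.00743). Eno3, the muscle enolase, fell by 0.92 and Pgk2, known from testis, by 0.72, with adjusted p = 0.00589 and 0.0151. Of 16 genes of lactate transport and pyruvate entry, Slc16a1, a lactate transporter, fell by 1.78 (SE 0.15, adjusted p = 0.00266) and no other passed, with Pdhx, a part of the pyruvate dehydrogenase complex, at -0.51 (adjusted p = 0.0522). Of 17 genes of the pentose phosphate pathway and glycogen, 2 rose and 3 fell, or 11.8% and 17.6%. Pygb, a glycogen phosphorylase, rose by 1.70, Gsk3b, a kinase of glycogen synthase, by 0.99, and Taldo1, the transaldolase, fell by 0.95.

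Of 31 other hypoxia-inducible targets, 2 fell, or 6.45%, and none rose, against the same 9.26% and 11.0% of all genes. Adm, a vasodilator peptide that is a classical target, read 10.90 and 10.79 in controls on day 0 and 8.93 and 9.31 on day 1, and fell by 1.72 (SE 0.20, adjusted p = 0.00496). Fam162a, a mitochondrial protein, fell by 0.63 (SE 0.17, adjusted p = 0.0429). Of 15 other regulators of the pathway, 4 rose and 1 fell, or 26.7% and 6.67%. The coactivators Crebbp and Ep300 rose by 1.35 and 1.27, Hif1an, which blocks coactivator binding, by 0.65, and Arnt, the shared partner, by 0.60. Cul2, the scaffold of the ligase that degrades the alpha subunits, fell by 0.54. Cul2 was named after its values were seen. The medians of these 5 lists, in the order given, were -0.47, -0.09, -0.05, -0.16 and 0.01, against -0.15 for all genes. None of the genes on these lists passed between arrays labelled Erg and controls on either day, where 0.0% of all genes passed.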

How the data were processed

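Total RNA was read on 8 Affymetrix mouse genome arrays. The intensity columns, deposited on the linear scale, are the authors' RMA output; the workbook's notes name Partek GS 6.6 and the series text dChip of 2005, and which was used is not settled. RMA subtracts background, quantile normalizes and summarises each probe set, so levels are relative between arrays. No depth exists for arrays, and their number limits the precision. The workbook and the series table differed by at most 4.99e-10 of a value.

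Intensities were put on the log2 scale and fitted as 4 group means over 8 arrays with limma 3.58.1 (lmFit and eBayes) in R 4.3.3. No filter was set, so 45037 probe sets were tested (4 residual and 2.78 prior degrees of freedom), adjusted by Benjamini-Hochberg, with a threshold of 0.05. The smallest exact permutation p for 2 against 2 is 0.333, so adjusted p-values are from limma. Pkm2 was matched as a synonym of Pkm and the other 34 symbols are current. Among the other listed genes, Gapdh, Pdhb and Epo, and the marker Plin1, were not measured by symbol. The fit was tested on simulated data. The 35 genes and the lists were chosen with earlier results of these data known.

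Per-array values are given for genes past the threshold between days (up to 6 per direction and set) and for the 4 genes with the smallest p per set in each comparison of the plasmids. From each other list the 2 to 4 genes with the smallest p between control days are named; 1 of them is not reported here. Alternatives were the series table, a variance trend, a robust prior, a filter on dim probe sets, averaged probe sets of a gene, no _s_at or _x_at probe sets, array weights, a replicate block, leaving out each array in turn, the 4 arrays of a contrast alone, cyclic loess and a repeated quantile normalization. A crossed block was added after seeing the data.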

Additional observations from a re-analysis of the deposited data

Results flagged for a closer look

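On its brightest probe set Aldoc, the aldolase best known from brain, lay on opposite sides of the controls on the 2 days. Both arrays labelled Erg lay below both controls on day 0, with a log2 difference of -0.191 (SE 0.12), as in 18.3% of all genes. Both lay above both controls on day 1, with a difference of 0.038 (SE 0.12), as in 21.2% of all genes. The other Aldoc probe set overlapped on day 1, with controls at 4.02 and 4.14 and arrays labelled Erg at 4.13 and 4.12. The opposite direction in every array of the brightest probe set is what singled it out. The test of the difference itself gave 0.23 (SE 0.17, adjusted p = 0.974 by limma), so it did not pass.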

How the results depend on the processing

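The counts of genes that passed between days depend most on which arrays set the error. The number of all 45037 probe sets that passed moved as well. Between control days it was 8922 in the main fit, 12533 with the 4 arrays alone, 13973 with array weights and 7110 with the replicate block. In the cultures labelled Erg it was 3146, 23 with the 4 arrays alone and 3704 with the crossed block. It also moved when 1 array was left out. A change in the counts below need not be particular to these genes. For the control cultures, 1 glycolysis gene and 3 hypoxia genes passed; with the 4 arrays alone there were 3 and 5, and with array weights 2 and 5. The glycolysis count was 2 with the mean of all probe sets, 2 without _s_at or _x_at probe sets, and 0 with the replicate block. For the cultures labelled Erg, where 1 and 1 passed, the 4 arrays alone gave 0 and 0, and a crossed replicate block on day 0, added after seeing the data, gave 2 hypoxia genes. Leaving out 1 array gave 0 to 5 glycolysis and 0 to 6 hypoxia genes between control days, and 0 to 9 and 0 to 8 in the cultures labelled Erg. It gave 0 to 4 and 0 to 5 for the plasmids on day 0, 0 on day 1, and 0 to 1 and 0 to 4 for the difference between the days. A group with 1 array left is assumed to vary like the others. The medians between plasmids on day 0 then ran from -0.46 to 0.21 for glycolysis and from -0.61 to 0.08 for hypoxia. Between days in the cultures labelled Erg they ran from -0.15 to 0.64 and from -0.11 to 0.77. For the difference between the days they ran from -0.04 to 0.58 and from -0.004 to 0.71. Without Erg day 0 replicate 2 the sign turned for Ldhb on day 0, to 0.172 (-1.79 without replicate 1), and for Tpi1 in the difference between the days, to -0.0068 (0.952 without replicate 1). The cause was not tested. Between control days Egln1 had adjusted p = 0.0658 with a variance trend and 0.216 at a difference of 0.28 with the mean of its probe sets. Of the values for single genes, 551 kept their direction and side of the threshold, 33 no longer passed, 4 newly passed and 2 reversed. Most of these values had not passed in the main fit, so keeping their side says little. All 33 losses fell on the calls between days. Between control days Egln1 lost its call in 10 settings and kept it in 10. Eno2 lost it in 7 and kept it in 13, Car9 in 4 and 16, and Ndrg1 in 2 and 18. In the cultures labelled Erg, Ndrg1 and Eno2 each lost it in 5 and kept it in 15.

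The labels do not say whether arrays with the same replicate number were paired, and the main fit did not pair them. The correlations that follow differ in sign and do not settle it. The correlation of deviations between same-numbered groups was -0.61 for the plasmids on day 0, 0.32 on day 1, 0.009 between control days and -0.24 between days labelled Erg. With the replicate block Eno2 between control days had adjusted p = 0.0531, and no other call among the named genes changed. Signal over background was not measured, since no detection calls were used.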
